A study of Mus musculus with 5 samples.

Results

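The genes described here encode the subunits and assembly factors of respiratory complex I, chosen as the protein-coding genes whose symbol starts with Nduf. They number 46 of the 53700 gene IDs in the deposited count table, and all 46 were counted well enough to receive an adjusted p-value. By role they were divided into 7 core subunits, 29 accessory subunits, 8 assembly factors of the Ndufaf series, and Ndufa4 with Ndufa4l2, which were kept apart because Ndufa4 is now placed in complex IV. Translating mRNA was pulled down from midbrain by BAC-TRAP, in which Cre switches on a tagged ribosomal protein (the L10a transgene) so that ribosome-bound transcripts of the Cre-expressing cells can be immunoprecipitated. The 3 WT libraries (numbered 2, 3 and 4; genotype L10a;Esrrg WT) and the 2 FLOX libraries (2 and 4; L10a;Esrrg Flox) all came from C57BL/6 mice aged 4 months, and both groups carried the transgene and received AAV:THCre, so that only the FLOX mice lost Esrrg, 1 month before collection. Several limits apply to the model: Cre was driven by a Th promoter, the floxed segment is exon 2 alone so the rest of the Esrrg transcript can still be counted, and animals were pooled within a library. P-values therefore measure the spread between these 5 libraries.

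Complex I is the largest enzyme of the mitochondrial respiratory chain. Its matrix arm takes electrons from NADH through a flavin and a chain of iron-sulfur clusters to ubiquinone, and its membrane arm uses the energy to pump protons. The catalytic core is made of nuclear-encoded subunits in the matrix arm and of mitochondrially encoded subunits in the membrane arm, while accessory subunits surround and stabilise both arms and assembly factors join the modules without staying in the finished enzyme. Dopaminergic neurons of the midbrain are known for their sensitivity to loss of complex I activity. Esrrg encodes ERRγ, an orphan nuclear receptor that binds AAGGTCA-type elements and is known as an activator of oxidative metabolism genes.

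The libraries held 20635855 to 23105058 counts assigned to genes, so that 3 counts corresponded to 0.13 to 0.145 CPM, the count scaled to a library of fixed size. Esrrg itself had 1763, 1643 and 1726 normalized counts in WT 2, 3 and 4, and 1504 and 1170 in FLOX 2 and 4. Both FLOX libraries were below every WT library, with a log2 fold change of -0.35 (SE 0.133, DESeq2 adjusted p = 0.0753). FLOX 4 stood apart from the other libraries in several lists. The 12 microglial markers summed to 83.7 to 168.8 CPM in WT and to 293.0 and 633.7 CPM in FLOX 2 and 4, with 10 of 12 higher in FLOX and none at 0 in any library. At the same threshold, a DESeq2 adjusted p under 0.05, 4.20% of all genes tested were higher in FLOX and 4.05% lower. The 8 endothelial markers summed to 5.76 to 13.4 CPM in WT and to 13.6 and 33.9 CPM in FLOX, with 3 of 8 higher and none at 0. The 9 astrocyte markers summed to 4067, 3479 and 4919 CPM in WT 2, 3 and 4 and to 3589 and 4514 CPM in FLOX. The 8 oligodendrocyte markers summed to 5440, 5289 and 7589 CPM in WT and to 5909 and 6780 CPM in FLOX. WT 4 had the highest sum in both lists, and no marker of either passed the test in either direction. The share of the complex I counts that came from each cell type was not tested. The 3 GABAergic markers summed to 905.2 to 941.7 CPM in WT and to 819.3 and 708.8 CPM in FLOX 2 and 4, with 1 lower (Gad2, log2 fold change -0.35, DESeq2 adjusted p = 0.0302). The 11 dopaminergic markers summed to 2044 to 2268 CPM in WT and to 2015 and 2016 CPM in FLOX, with 1 lower. In bulk libraries such as these, fewer cells of a type and less RNA per cell cannot be told apart.

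Levels were first compared between members in WT, as TPM, a share of all transcripts computed from the counts and 1 transcript length per gene. Ndufa4 was the most abundant, at 2345 ± 72.5 TPM (SD, n = 3), followed by Ndufa6, a LYR-motif subunit of the matrix arm, at 1059 ± 28.5 TPM and Ndufa3, a small membrane-arm subunit, at 1050 ± 69.4 TPM. The difference between Ndufa6 and Ndufa3 was within their spread. At the other end were Ndufa4l2, a paralog of Ndufa4 known for its induction by hypoxia, at 1.75 ± 0.243 TPM, Ndufb2, a small membrane-arm subunit, at 16.8 ± 0.43 TPM, and Ndufaf6, an assembly factor, at 24.6 ± 2.59 TPM. The low TPM of Ndufb2 rests on an annotated transcript of 4371 bases, the longest among the members. Along the whole order of TPM, 23 of the 45 neighbouring pairs differed by more than the larger of their SDs.

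By role, the WT levels per length were as follows. Accessory subunits had a median of 658.9 TPM (range 16.8 to 1059), core subunits a median of 423.4 TPM (range 89.5 to 791.9) and assembly factors a median of 67.1 TPM (range 24.6 to 229.8). Among core subunits, Ndufs7, which carries the last iron-sulfur cluster before ubiquinone, had the highest level at 791.9 ± 8.08 TPM. Ndufs1, the largest core subunit of the matrix arm, had the lowest at 89.5 ± 0.486 TPM.

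**Figure D1:**
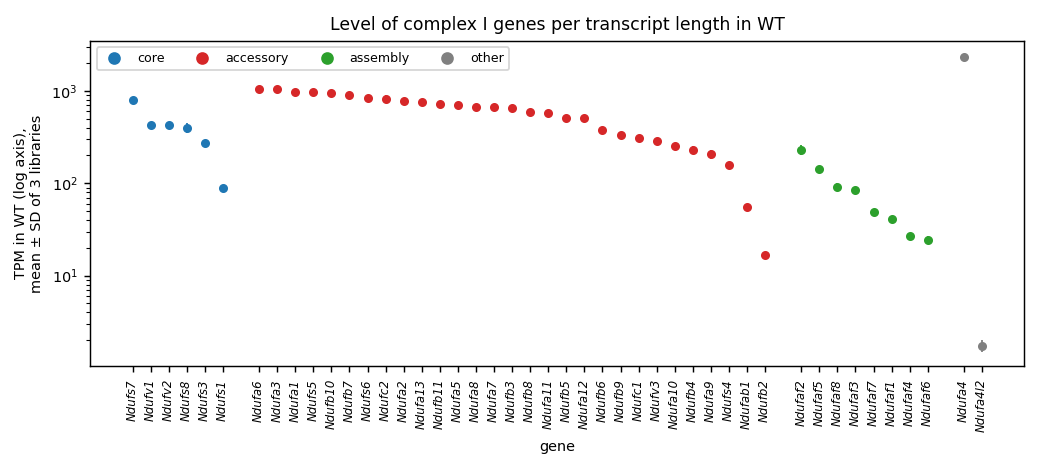
Mean TPM of 45 of the genes in the 3 WT libraries on a log axis, with SD as bars (mostly smaller than the points), grouped by role and ordered within it. Accessory subunits reach 1059 TPM, assembly factors lie at or below 229.8 TPM, and Ndufa4 and Ndufa4l2 mark the ends at 2345 and 1.75 TPM.

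Deletion of Esrrg was then asked about gene by gene. Of the 46 members, 7 passed an adjusted p of 0.05 (DESeq2 Wald test, Benjamini-Hochberg adjustment over 15724 genes), where 8.25% of all genes tested did. Among them 6 were higher in FLOX and 1 was lower, against 4.20% higher and 4.05% lower in the whole table. Before adjustment, at p under 0.05, the members counted 14 higher and 3 lower, where 9.74% and 10.6% of all genes were. None of the 7 reached a fold change of 1.5, a size that 1.77% of all genes tested reached upward and 1.41% downward. The median log2 fold change of the members was 0.12 (range -0.42 to 0.43), with 31 positive and 15 negative, against a median of -0.0063 over all genes tested. Both FLOX libraries lay above all WT libraries for 18 members and below them for 8, while over all genes tested these shares were 19.9% and 22.5%. For 1 gene at a time, exact permutation of 3 libraries against 2 gives no p below 0.1.

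**Figure D2:**
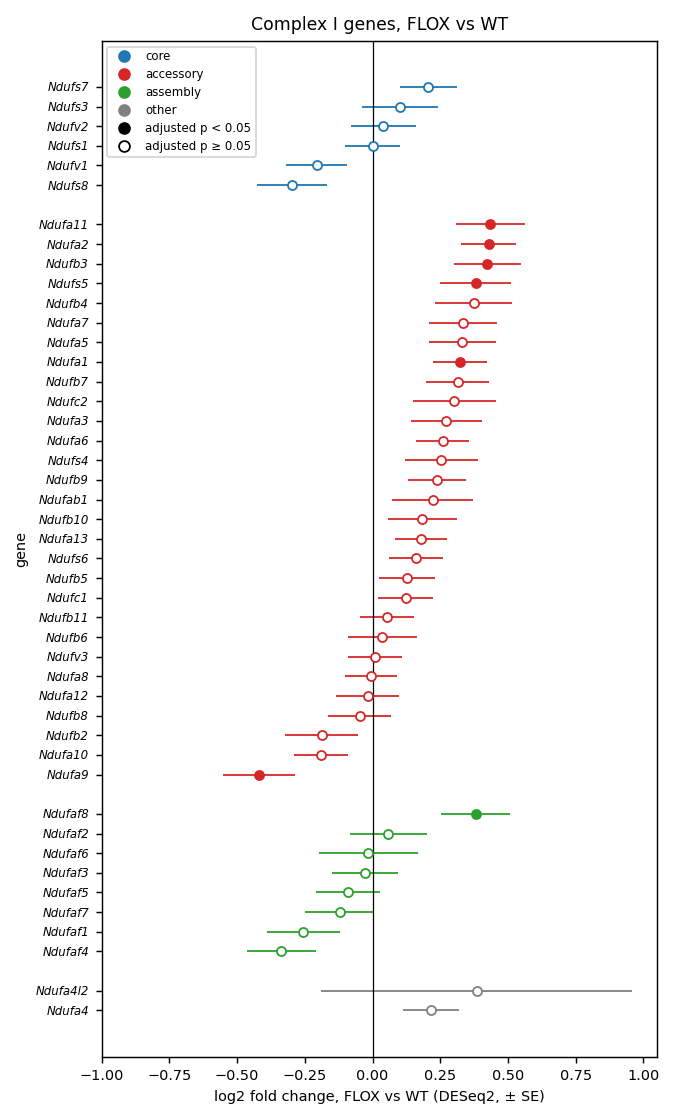
DESeq2 log2 fold change of FLOX against WT for 45 of the genes, with the standard error as bars, grouped by role. Filled points passed an adjusted p of 0.05: 5 accessory subunits and Ndufaf8 to the right of 0, and Ndufa9 to the left at -0.42. The core subunits straddle 0.

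None of the 7 nuclear-encoded core subunits passed the test in either direction, and their median log2 fold change was 0.0003 (range -0.30 to 0.21). At an unadjusted p under 0.05, 1 of the 7 was lower and none higher (10.6% and 9.74% of all genes tested). No core subunit was called by edgeR, which called 1.02% of all genes tested higher and 0.628% lower. The lowest was Ndufs8, which holds a pair of iron-sulfur clusters on the path to ubiquinone. It had 3939, 3695 and 4813 normalized counts in the WT libraries and 3339 and 3411 in FLOX. The FLOX values were below every WT value and WT 4 was well above the other WT libraries, and the log2 fold change of -0.30 (SE 0.129) did not pass (unadjusted p = 0.0207, adjusted p = 0.145). With the length trend described further on removed, Ndufs8 did pass, at -0.45 (DESeq2 adjusted p = 0.00424). It was then the only core subunit called, where 3.07% of all genes tested were lower. Ndufv1, the subunit that binds NADH and the flavin, had 7310, 6594 and 8125 normalized counts in WT and 6323 and 6406 in FLOX. Here too the groups did not overlap, with a log2 fold change of -0.21 (SE 0.113, DESeq2 adjusted p = 0.296).

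Ndufs7 lay on the other side, with 8017, 7823 and 8234 normalized counts in WT and 8514 and 9997 in FLOX. Both FLOX libraries were above WT, FLOX 4 by far more than FLOX 2, and the log2 fold change was 0.21 (SE 0.105, DESeq2 adjusted p = 0.248). For Ndufs1, Ndufv2 and Ndufs3 the groups overlapped. Their log2 fold changes were 0.0003 for Ndufs1 (SE 0.102), 0.04 for Ndufv2, an iron-sulfur subunit of the NADH-oxidising tip (SE 0.12), and 0.10 for Ndufs3, a core subunit without a cofactor (SE 0.14).

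The accessory subunits held 6 of the 7 calls, 5 higher and 1 lower of 29, where 4.20% and 4.05% of all genes tested were. Their median log2 fold change was 0.22 (range -0.42 to 0.43). Both FLOX libraries were above WT for 14 of them and below WT for 3, where this held for 19.9% and 22.5% of all genes tested. The call with the smallest adjusted p was Ndufa2, a small matrix-arm subunit, with 4433, 4574 and 4780 normalized counts in WT and 5833 and 6541 in FLOX. The lower FLOX library was above the highest WT library by more than the whole WT range, and the log2 fold change was 0.43 (SE 0.102, adjusted p = 0.00164), or 34.6% higher by the group means.

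The other 4 that rose are small subunits of the membrane arm. Ndufb3 had 5010, 5061 and 5482 normalized counts in WT and 6126 and 7779 in FLOX. Ndufa11 had 3189, 3312 and 3326 in WT and 3832 and 5022 in FLOX. In both genes the FLOX libraries were above WT, and FLOX 4 was well above FLOX 2. The log2 fold changes were 0.42 for Ndufb3 (SE 0.123, adjusted p = 0.0136) and 0.43 for Ndufa11 (SE 0.128, adjusted p = 0.0155). Ndufa1, an X-linked subunit, had 4225, 4052 and 4410.0 normalized counts in WT and 5073 and 5497 in FLOX, so that its FLOX libraries were closer together, with a log2 fold change of 0.32 (SE 0.0999, adjusted p = 0.0236). Ndufs5, a subunit facing the intermembrane space, had 6675, 6518 and 7332 normalized counts in WT and 7699 and 10119 in FLOX. FLOX 2 was only just above WT 4 there, and the log2 fold change was 0.38 (SE 0.13, adjusted p = 0.0441).

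The size of these increases rested in part on FLOX 4. Without it the log2 fold changes were 0.24 for Ndufb3, 0.22 for Ndufa11, 0.17 for Ndufs5, 0.26 for Ndufa1 and 0.34 for Ndufa2, and none passed (DESeq2 adjusted p from 0.286 to 0.903). Without WT 2 none passed either (0.0907 to 0.263), and without WT 3 only Ndufa2 did (0.0354). With the length trend described further on removed, the log2 fold changes were 0.21, 0.16, 0.14, 0.002 and 0.16 in the same order, and none passed (DESeq2 adjusted p from 0.279 to 0.996).

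Ndufa9 was the only member that fell. It encodes an accessory subunit of the short-chain dehydrogenase family at the junction of the arms near the ubiquinone site, and it is a gene that the study itself singled out from these libraries, so its direction here is not independent evidence. It had 2939, 2737 and 3579 normalized counts in WT 2, 3 and 4 and 2222 and 2389 in FLOX 2 and 4. Both FLOX libraries were below all WT libraries, and WT 4 was the highest by a wide margin. The group means differed by -25.3%, with a log2 fold change of -0.42 (SE 0.133, adjusted p = 0.0271). Without WT 4 the log2 fold change was -0.30 (adjusted p = 0.08), and with edgeR's quasi-likelihood test it was -0.42 (adjusted p = 0.0868). Leaving out WT 2, FLOX 2 or FLOX 4 also lost the call, with DESeq2 adjusted p-values of 0.118, 0.154 and 0.195.

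**Figure D3:**
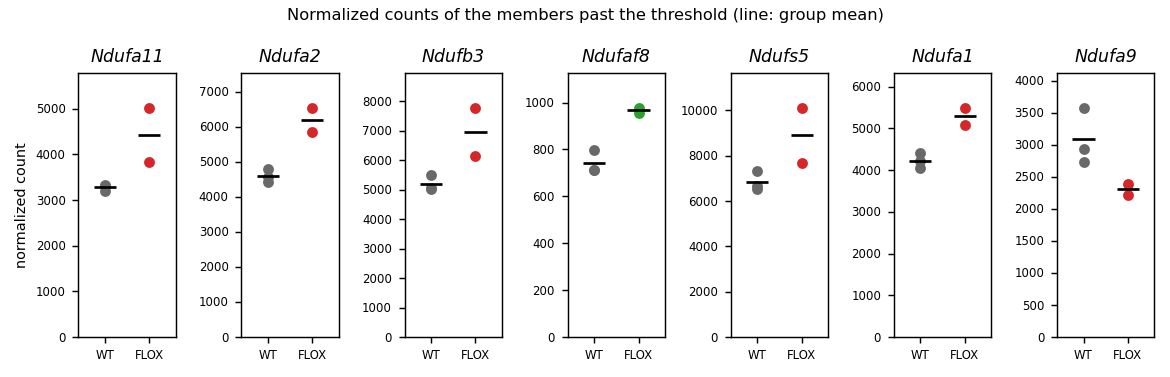
Normalized counts of the 7 genes past the threshold, 1 point per library (3 WT in grey, 2 FLOX in colour) with the group mean as a line and each axis starting at 0. In every panel the groups do not overlap, and in Ndufa11, Ndufb3 and Ndufs5 the FLOX libraries are far apart (for Ndufs5 7699 and 10119).

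Ndufa10 and Ndufb2 also lay below WT in both FLOX libraries, without passing. The first, a membrane-arm subunit related to nucleoside kinases, had 5320, 4995 and 5561 normalized counts in WT, while FLOX gave 4749 and 4536 (log2 fold change -0.19 with SE 0.0995, adjusted p = 0.268 by DESeq2). Ndufb2 had 735.4, 766.3 and 770.5 in WT, while FLOX gave 715.7 and 614.4 (log2 fold change -0.19 with SE 0.135, adjusted p = 0.479 by DESeq2). Ndufs4, a subunit of the NADH-oxidising module whose loss gives a Leigh-like disease in mice, had 2559, 2769 and 2989 normalized counts in WT and 2881 and 3734 in FLOX. Its groups overlapped, with a log2 fold change of 0.25 (SE 0.134, DESeq2 adjusted p = 0.269).

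Some of these counts may be shared with other genes. In GENCODE M21, Ndufa2, Ndufa11 and Ndufa9 share 11.5%, 6.41% and 3.19% of their exonic bases with Tmco6, Vmac and 1700018A23Rik. Processed pseudogenes nearly identical to part of Ndufb3 and Ndufs5 cover 37% and 46.9% of their transcripts. For Ndufaf2, 65.7% of exonic bases are shared with B230220B15Rik, and a pseudogene covers 75.7% of Ndufs3.

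Split by position, the 19 accessory subunits of the membrane arm had a median log2 fold change of 0.18, with 4 higher and none lower. Over all genes tested, 4.20% were higher and 4.05% lower. The 9 accessory subunits of the matrix arm had a median of 0.25, with 1 higher (Ndufa2) and 1 lower (Ndufa9). Without FLOX 4 the median of these 9 was 0.12 with none past the threshold, and with the length trend removed it was 0.0007. Ndufab1, the mitochondrial acyl carrier protein, sits in both arms and was counted in neither. Together with the core, the 16 matrix-arm subunits had a median of 0.07.

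Of the 8 assembly factors 1 was higher and none lower (4.20% and 4.05% of all genes tested), with a median log2 fold change of -0.06. Ndufaf8, a partner of the methyltransferase-like factor Ndufaf5, had 799.6, 712.3 and 713.9 normalized counts in WT and 953.9 and 978.2 in FLOX. The FLOX libraries were close together and above WT, with a log2 fold change of 0.38 (SE 0.127, adjusted p = 0.0385). This call was lost with any 1 library left out (DESeq2 adjusted p from 0.117 to 0.617), with edgeR (0.0733), without independent filtering (0.0717) and with the replicate block (0.39). With the length trend removed the log2 fold change was 0.17 (adjusted p = 0.543). Ndufaf4, which acts with Ndufaf3 on the matrix arm, had 961.9, 945.7 and 1088 normalized counts in WT and 814.6 and 767.5 in FLOX. Ndufaf1, a member of the complex that builds the membrane arm, had 643.7, 603.3 and 616.8 in WT and 516.8 and 523.9 in FLOX. In both genes every FLOX value was below every WT value, but neither passed (Ndufaf4 log2 fold change -0.34, SE 0.129, DESeq2 adjusted p = 0.0848; Ndufaf1 -0.26, SE 0.135, adjusted p = 0.267). Ndufaf2, a late-acting paralog of the subunit Ndufa12, and Ndufaf6 overlapped between groups, with log2 fold changes of 0.06 (SE 0.143) and -0.02 (SE 0.184).

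Ndufa4 had 14066, 14867 and 15313 normalized counts in WT and 15957 and 18315 in FLOX, without overlap, and its log2 fold change of 0.22 (SE 0.103) did not pass (adjusted p = 0.2). Ndufa4l2 was near the limit of the depth, with 14.3 to 19.0 normalized counts in WT and 23.1 and 20.9 in FLOX (a log2 fold change of 0.38 with SE 0.574 and an adjusted p = 0.798 by DESeq2). A difference of this size was not detectable for it at this depth.

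Set against each other within a library, accessory and core subunits were in a different ratio in the groups. The mean TPM of the accessory subunits divided by that of the core subunits was 1.40, 1.44 and 1.41 in WT 2, 3 and 4 and 1.61 and 1.70 in FLOX 2 and 4. The ratio was thus above every WT library in both FLOX libraries. Core subunits had a mean of 408.6, 400.0 and 431.2 TPM in WT and 374.2 and 389.3 TPM in FLOX, with both FLOX libraries below WT. Accessory subunits had 571.5, 577.8 and 606.3 TPM in WT and 601.7 and 660.5 TPM in FLOX, and FLOX 2 lay within the WT range. Assembly factors had 83.6, 84.0 and 91.3 TPM in WT and 81.8 and 79.8 TPM in FLOX. In normalized counts, the median log2 deviation of the core subunits from their WT means was -0.02, -0.06 and 0.15 in WT. It was -0.06 and 0.05 in FLOX 2 and 4. Accessory transcripts were also shorter (medians of 763 and 1623 bases). With the length trend described further on removed, the median log2 fold changes were 0.002 for accessory and -0.05 for core subunits. Whether length accounts for the ratio was not tested.

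The libraries of one group were not alike in these shifts. The median log2 deviation of the 46 members from their WT means was -0.05, -0.04 and 0.09 in WT 2, 3 and 4, and 0.03 and 0.20 in FLOX 2 and 4. FLOX 2 was therefore inside the WT range and FLOX 4 outside it. For the accessory subunits alone the deviation was 0.0856 in FLOX 2, against 0.0818 in WT 4, and 0.32 in FLOX 4. Without FLOX 4, the library with the most microglial, endothelial and mitochondrially encoded transcripts, no member was higher and none lower, where 0.309% and 0.365% of all genes tested were (3 and 1 members at p under 0.05 before DESeq2's adjustment). The median log2 fold change of the members was then 0.02 and that of the accessory subunits 0.08. Without FLOX 2, 13 members were higher and none lower (5.29% and 5.49% of all genes tested), with a median of 0.20. Without WT 2 no member passed either, where 1.26% and 0.893% of all genes tested did (8 and 3 members before adjustment). Without WT 3 the counts were 1 higher and 1 lower (2.13% and 1.91%), and without WT 4 they were 9 and 0 (4.36% and 4.50%). All 7 called members kept their sign in each of these fits.

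Other ways of testing the same counts also moved the number of calls. edgeR called 1 member higher, Ndufa2, and none lower (1.02% and 0.628% of all genes tested), with 15 and 4 at p under 0.05 before adjustment. The edgeR adjusted p of Ndufa2 was 0.05 after rounding, so that this call was just at the threshold. Without independent filtering 4 were higher and none lower (1.59% and 1.47%). With the replicate number as a block 2 were higher, Ndufa2 and Ndufb3, and 1 lower, Ndufa9 (1.88% and 2.17%).

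**Figure D4:**
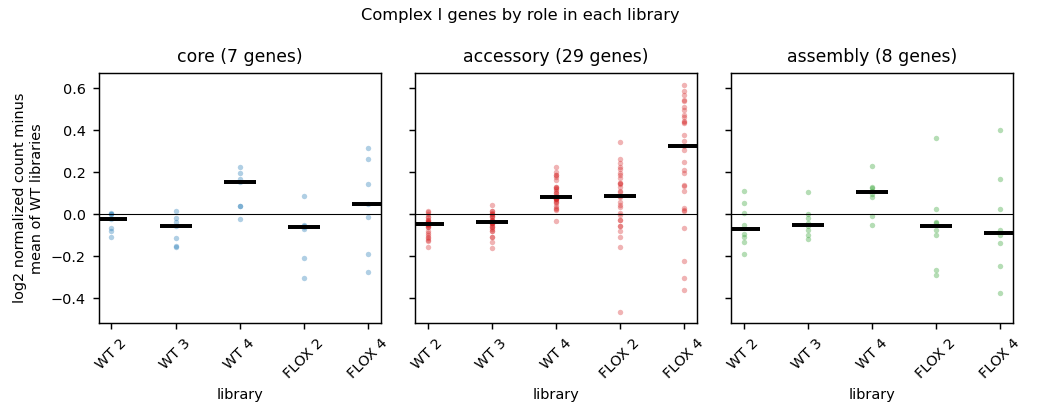
Log2 normalized count of each core, accessory and assembly gene in each library, minus the mean of the 3 WT libraries for that gene, with the median of each role as a black bar. The accessory genes of FLOX 4 lie mostly above 0, and those of FLOX 2 are spread around the level of WT 4. The assembly medians are below 0 in FLOX 2 and FLOX 4 (-0.06 and -0.09). They are also below 0 in WT 2 and WT 3 (-0.07 and -0.05), against 0.10 in WT 4.

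The members also differed by transcript length, which moved with the fold change. Accessory subunits had a median transcript of 763 bases, core subunits of 1623 bases and assembly factors of 1308.5 bases. Across the 46 members, Spearman's correlation of transcript length with the log2 fold change was -0.64, and across the 29 accessory subunits it was -0.57. Over 14016 protein-coding genes tested it was -0.24. These are descriptions across genes that share the same 5 libraries and are not independent replicates. They rest on 1 annotated transcript per gene, such as 4371 bases for Ndufb2 and 3479 for Ndufab1, as do the length bands and the trend removal below. Whether these were the transcripts present was not tested.

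The members were then set beside genes of like length. The 14 members under 700 bases had a median log2 fold change of 0.29, against 0.32 for all 257 protein-coding genes of that length, of which 26.5% were higher in FLOX. The 10 members of 700 to 1000 bases had a median of 0.29 against 0.23 for 518 genes. The 17 members of 1000 to 2000 bases had a median of -0.02 against 0.09 for 2791 genes, and the 5 longer ones a median of -0.19 against -0.05 for 10450 genes. Of the 6 members that rose, 4 were among the 14 under 700 bases and 2 among the 10 of 700 to 1000 bases, where 17.8% of all genes rose. Ndufa9, with 1445 bases, fell in a band where 2.4% of genes were lower.

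The trend was present in the libraries as a whole. At 500 bases the fitted log2 deviation was -0.16, -0.10 and -0.05 in WT 2, 3 and 4 and 0.15 and 0.22 in FLOX 2 and 4. When the trend of each library was removed before the test, no member was higher and 2 were lower, where 3.27% and 3.07% of all genes tested were (0 and 9 members before DESeq2's adjustment). The 2 were Ndufa9 (log2 fold change -0.50, DESeq2 adjusted p = 0.00202) and Ndufs8 (-0.45, adjusted p = 0.00424). The median of the members was then -0.03, that of the accessory subunits 0.002, that of the core subunits -0.05 and that of the assembly factors -0.17. Whether the trend came from the libraries or from the cells was not tested.

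**Figure D5:**
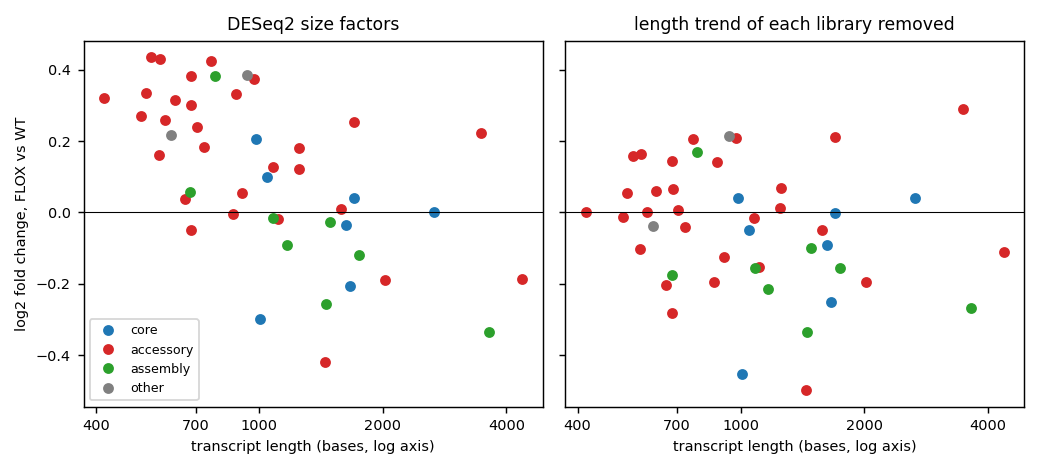
Log2 fold change of FLOX against WT for each member plotted against its transcript length on a log axis, with the DESeq2 size factors alone (left) and after the length trend of each library was removed (right). On the left the genes under 1000 bases lie mostly above 0; on the right they are spread on both sides of 0, and Ndufa9 and Ndufs8 are lowest at -0.50 and -0.45.

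The mitochondrially encoded subunits make up the core of the membrane arm. Of 7 such genes, mt-Nd3 and mt-Nd4l had at most about 1 count in any library. The other 5, against 19.9% of all genes tested, were above every WT library in both FLOX libraries. Of these, mt-Nd5, a proton-pumping subunit, passed the test, with 481.5, 461.6 and 562.1 normalized counts in WT and 701.3 and 1059 in FLOX (a log2 fold change of 0.81 with SE 0.186 and an adjusted p = 0.000942 by DESeq2). The other 4 had larger fold changes and wider errors, with FLOX 4 far above FLOX 2. For mt-Nd1 the normalized counts were 1728, 1478 and 1785 in WT and 2157 and 5901 in FLOX (a log2 fold change of 1.28 with SE 0.51 and an adjusted p = 0.103 by DESeq2). The log2 fold changes of mt-Nd2, mt-Nd4 and mt-Nd6 were 1.32, 1.62 and 1.26, with DESeq2 adjusted p-values of 0.121, 0.0817 and 0.0723. In the main fit 1 of the 5 tested was thus higher, where 4.20% of all genes tested were, and with edgeR none was (1.02%). The median log2 fold change of the 7 genes was 1.26, and it was 1.74 without FLOX 2 and 0.48 without FLOX 4. Summed over the 7 genes, the level was 164.5 to 190.9 CPM in WT, 238.8 CPM in FLOX 2 and 619.6 CPM in FLOX 4. These transcripts are made and translated inside mitochondria, and the share of them that was bound to the tagged ribosomes was not tested.

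Assembly factors outside the Ndufaf series came from a separate list. Of 12 measured, none was higher and 1 was lower (4.20% and 4.05% of all genes tested), with a median log2 fold change of -0.13. In both FLOX libraries 6 lay below WT, where 22.5% of all genes tested did. The one past the threshold was Dmac2, a factor of the distal membrane arm, with 1814, 1701 and 1887 normalized counts in WT and 1495 and 1364 in FLOX (a log2 fold change of -0.33 with SE 0.114 and an adjusted p = 0.0441 by DESeq2). The call of Dmac2 was lost with any 1 library left out, with edgeR, with the replicate block, without independent filtering and with the length trend removed. Acad9, which works with Ndufaf1, had the largest decrease in the list, from 293.9, 328.1 and 404.5 normalized counts in WT to 246.9 and 220.7 in FLOX, and did not pass (log2 fold change -0.55, SE 0.196, DESeq2 adjusted p = 0.0569).

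The other respiratory complexes were read in the same fit. Complexes II, III and IV had 1 of 24 genes higher and 3 lower, where 4.20% and 4.05% of all genes tested were, with a median log2 fold change of 0.12. With edgeR the counts were 0 and 0 (1.02% and 0.628% of all genes tested). With the length trend removed they were 0 and 4 (3.27% and 3.07%), with a median of -0.08. The median was 0.195 without FLOX 2 and 0.02 without FLOX 4. The ATP synthase had 2 of 16 higher and 2 lower, with a median of 0.18. Its counts were 0 and 0 without WT 2 (1.26% and 0.893% of all genes tested). They were also 0 and 0 with edgeR (1.02% and 0.628%). With the length trend removed they were 0 and 2 (3.27% and 3.07%), with a median of -0.03 and 13 of 16 negative. The median of the ATP synthase was 0.22 without FLOX 2 and 0.06 without FLOX 4. The genes past the threshold, named after their values were seen, were Uqcrh (0.42), Cyc1 (-0.55), Uqcrc1 (-0.27) and Uqcrc2 (-0.58) in complex III, and Atp5l (0.56), Atp5o (0.35), Atp5b (-0.51) and Atp5g1 (-0.32) in the ATP synthase, all as log2 fold changes. All of these but Cyc1 and Atp5g1 were already listed by the study from the same libraries, so they are not independent evidence. Cytosolic ribosomal protein genes were higher for 53 of 85 (4.20% of all genes tested), with a median of 0.40. With the length trend removed 23 were higher (3.27% of all genes tested), with a median of 0.20. Without FLOX 4 the median of the ribosomal genes was 0.39.

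Because ERRγ binds DNA at AAGGTCA-type elements, the promoter windows of the members were searched for that motif on both strands. A window of 300 bases, from 250 before to 50 after the RefSeq start (GRCm38.p6), was at hand for 40 of the 46 members. AAGGTCA was present in 3 of the 40 (7.5%), against 5.38% of 27025 genes, and the longer TCAAGGTCA, which contains it, in none, against 0.466%. The 3 members with AAGGTCA were Ndufs5, which rose, and Ndufb2 and Ndufb4, which did not pass the test (log2 fold changes -0.19 and 0.37). The upstream bases are given for Ndufs5 and Ndufb2, whose fold changes differ in sign while both hold the motif, and for Ndufa9, the member that fell and has no such match. Capitals mark AAGGTCA or its reverse complement TGACCTT, whose first base is at -228 in Ndufs5 (minus strand) and at -181 in Ndufb2 (plus strand), counted back from the start.
Ndufs5, chr4:123718187-123718436, minus strand: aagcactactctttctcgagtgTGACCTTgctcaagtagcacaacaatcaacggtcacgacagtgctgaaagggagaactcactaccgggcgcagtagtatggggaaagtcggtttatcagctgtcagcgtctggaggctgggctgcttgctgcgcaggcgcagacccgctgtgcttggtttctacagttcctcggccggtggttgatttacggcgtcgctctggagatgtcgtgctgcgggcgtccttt
Ndufb2, chr6:39592315-39592564, plus strand: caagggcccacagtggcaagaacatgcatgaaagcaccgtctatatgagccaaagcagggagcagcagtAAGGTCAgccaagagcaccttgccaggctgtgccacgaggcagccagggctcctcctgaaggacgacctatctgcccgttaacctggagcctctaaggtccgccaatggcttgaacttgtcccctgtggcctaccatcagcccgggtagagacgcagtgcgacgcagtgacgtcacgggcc
Ndufa9, chr6:126849145-126849394, minus strand: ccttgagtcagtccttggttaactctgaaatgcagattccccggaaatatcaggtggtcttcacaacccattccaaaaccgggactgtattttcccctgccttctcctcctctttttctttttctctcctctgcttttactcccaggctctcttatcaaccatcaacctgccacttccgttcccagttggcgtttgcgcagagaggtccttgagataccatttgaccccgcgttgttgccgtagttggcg

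Motifs of other factors known from promoters of respiratory genes were searched in the same windows and on both strands. The YY1 motif AAGATGGC was present in 8 of 40 members (20%, against 3.19% of all genes), among them Ndufa9, Ndufaf8 and Ndufs7. The palindromic NRF1 motif was present in 3 (7.5%, against 1.07%), namely Ndufa11, Ndufaf4 and Ndufaf5. The ETS motif CCGGAAG was present in 6 (15%, against 9.93%), among them Ndufaf1, Ndufaf8 and Ndufs8. Among the 8 members with AAGATGGC, the log2 fold changes were 0.38 (Ndufaf8), 0.27 (Ndufa3), 0.25 (Ndufs4) and 0.21 (Ndufs7). For the others of the 8 they were 0.16 (Ndufs6), 0.12 (Ndufc1), -0.05 (Ndufb8) and -0.42 (Ndufa9). Of these only Ndufaf8 and Ndufa9 passed the test. With the NRF1 motif they were 0.43 (Ndufa11, which passed), -0.09 (Ndufaf5) and -0.34 (Ndufaf4). Whether a motif bears on the direction was not tested. These matches describe letters in a window and do not show that a factor binds there.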

How the data were processed

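The authors deposited 1 table of raw read counts per gene for 5 libraries, which were poly(A)-selected and not strand-specific according to the study's methods. The submitters' processing notes name CASAVA, Trim Galore 0.6.6, STAR 2.7.9a, HTSeq 0.11.3, DESeq2 and build GRCm39, whereas the methods name GRCm38 with GENCODE M24, so no coordinates were taken from the table. Symbols, types and 1 transcript length per gene came from GENCODE M21, matched on IDs without version (97.0% of 53700).

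Counts were fitted with DESeq2 1.42.0 (R 4.3.3, design of group alone, 29407 genes with at least 1 count, independent filtering at 0.05), after the script was checked on simulated data. TPM were computed from the counts and lengths. Alternatives were edgeR 4.0.16 quasi-likelihood, TMM sizes, at least 10 counts in at least 2 libraries, no independent filtering, a fold change of at least 1.5, the replicate number as a block, each library left out, and removal of each library's length trend (lowess span 0.3). Reads not assigned because features overlapped were 5.62 to 5.78% as ambiguous, and 3.18 to 4.45% fell in no feature. Named genes were the core subunits (1 is not reported here by name), all members past the threshold, the 2 highest and 2 lowest fold changes per role among members with a mean of at least 10 normalized counts, the 3 highest and 3 lowest TPM, Ndufa9, Ndufs4, Ndufa4, Ndufa4l2, Esrrg and the mt-Nd genes. Further members are named in the promoter search by the motif they hold. The members and lists were chosen with earlier results of these data known. Same-numbered WT and FLOX libraries deviated together only weakly (r = 0.0924 and 0.089 over 16178 genes), and the numbers were not taken as pairs.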

Additional observations from a re-analysis of the deposited data

How the results depend on the processing

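The 7 called members kept their sign under every alternative, but their number depended on it. The main fit gave 6 higher and 1 lower (4.20% and 4.05% of all genes tested). With the replicate number as a block the counts were 2 and 1 (1.88% and 2.17%). This was a replicate block over 2 shared numbers, which were not taken as pairs. With edgeR they were 1 (Ndufa2, just at the threshold) and 0 (1.02% and 0.628%), and without independent filtering 4 and 0 (1.59% and 1.47%). They were 0 and 2 with the length trend removed (3.27% and 3.07%), and 0 and 0 at a fold change of at least 1.5 (1.77% and 1.41%). With each library left out, the higher count ran from 0 (without WT 2, and without FLOX 4) to 13 (without FLOX 2) and the lower count from 0 to 1. Over these same fits the median log2 fold change ran from 0.0205 to 0.2011 for members, from 0.0784 to 0.3234 for accessory subunits and likewise from 0.0784 to 0.3234 for the membrane arm. Removing the length trend gave -0.0274 for members, 0.002 for accessory subunits and -0.0502 for core subunits. It gave 0.002 for the membrane arm, -0.0256 for the matrix arm and -0.1662 for assembly factors. Ndufa9 ran from -0.50 to -0.30 with a library left out, with adjusted p from 0.024 (without WT 3) to 0.195 (without FLOX 4), and gave -0.419 (adjusted p = 0.0868) with edgeR. Sign changes among the named members were limited to ones that had not passed the test. With the length trend removed they were Ndufa3 (-0.013), Ndufa4 (-0.038), Ndufaf2 (-0.175), Ndufs3 (-0.05) and Ndufv2 (-0.002). With the block they were Ndufaf6 (0.044) and Ndufs1 (-0.008), which was also -0.008 with TMM sizes.

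With a library left out, the log2 fold change of Ndufaf2 fell to -0.052, that of Ndufs1 to -0.053, that of Ndufs3 to -0.08 and that of Ndufv2 to -0.071, all without FLOX 4, and that of Ndufaf6 rose to 0.036 without WT 3. The highest values were 0.181 for Ndufaf2 (without WT 4) and, without FLOX 2, 0.049 for Ndufs1, 0.257 for Ndufs3 and 0.139 for Ndufv2, and the lowest was -0.105 for Ndufaf6 (without WT 2). The matrix-arm median ran from -0.0007 without FLOX 4 to 0.1666 without FLOX 2, and that of its 9 accessory subunits from 0.1241 without FLOX 4 to 0.3044 without FLOX 2. The limits are the 2 FLOX libraries, the length trend, and shared reads: 19 members share exonic bases with another gene in M21, Ndufa2, Ndufa9 and Ndufa11 among those past the threshold, and 17 have a stretch of at least 100 bases at 95% identity in another gene's transcript, Ndufb3 and Ndufs5 among them. With unstranded counting such reads can be lost or moved between the genes.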

Other observations

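Ndufb1-ps has a symbol of the same series but is typed as noncoding in GENCODE M21, so it was not counted among the members. It had 2435, 2840 and 2953 normalized counts in WT and 3402 and 3893 in FLOX, all FLOX values above WT (log2 fold change 0.41, SE 0.123, DESeq2 adjusted p = 0.0178). The processed pseudogene Ndufab1-ps overlapped between groups and did not pass the test (log2 fold change 0.56, SE 0.618, DESeq2 adjusted p = 0.704).

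Of the other ERR family genes and their coactivators none passed the test. Esrrb had 210.7, 203.8 and 200.8 normalized counts in WT and 140.3 and 137.2 in FLOX, without overlap (log2 fold change -0.56, SE 0.206, DESeq2 adjusted p = 0.0664). Esrra, also below WT in both FLOX libraries, had a log2 fold change of -0.20 (SE 0.121, DESeq2 adjusted p = 0.358). The coactivator gene Ppargc1a overlapped between groups (-0.07, SE 0.13), whereas Ppargc1b was above WT in both FLOX libraries (0.55, SE 0.264, DESeq2 adjusted p = 0.209).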
